A study of Mus musculus with 4 samples.

Results

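The 9 genes described here encode transcription factors of hepatocyte identity and members of the C/EBP family. They are the nuclear receptor gene Hnf4a, the forkhead genes Foxa1, Foxa2 and Foxa3, the cut-homeobox gene Onecut1, the homeobox gene Prox1 and the C/EBP genes Cebpa, Cebpb and Cebpd. They were chosen by gene symbol from the array's platform annotation, with every probe set of each gene included, and comprised 17 of 45101 probe sets and 9 of 18193 named genes. All samples were livers of mice with the genotype Metff/ff:ERCre+/+, in which both Met alleles can be recombined by a Cre that tamoxifen activates. The delta MET + EGFRi group (treated) received tamoxifen on 5 days to delete exon 16 of Met throughout the body, rested for 4 days and then ate a diet with the EGFR inhibitor canertinib, aimed at 80 mg/kg/day. Control littermates of the same genotype received corn oil alone on 5 days and had the same 4 days of rest, with neither tamoxifen nor canertinib. Livers were taken at day 10 and day 7 of canertinib feeding, or on the matching days in controls, and liver RNA was pooled by group and day, with 1 Affymetrix array for each pool. Each group therefore has 2 arrays, which differ in day, and Met deletion, tamoxifen, canertinib and food intake cannot be told apart. The sources used here name neither the number of livers in a pool nor the promoter that drives Cre.

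Hepatocyte identity rests on a network of factors that bind each other's genes. FOXA proteins open chromatin at liver enhancers, HNF4A activates a large share of hepatocyte metabolic genes, ONECUT1 (HNF6) and PROX1 act in liver development and in the adult hepatocyte, and C/EBP alpha maintains metabolic gene expression in resting hepatocytes. C/EBP beta and C/EBP delta belong to the same basic leucine zipper family and bind similar DNA. Their genes are induced by inflammatory cytokines in the acute phase response, and C/EBP beta also acts in liver regeneration.

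The median MAS5 signal, a linear intensity per probe set, ranged from 210.5 to 223.9 over the 4 arrays, and log2 signals of pairs of arrays correlated with r between 0.923 and 0.948 across probe sets. The brightest Met probe set was not lower in treated livers, at 2828.7 and 2432.5 units at day 10 and day 7, against 1270.8 and 975.5 in control livers (log2 difference 1.24 ± 0.23 SE, limma adjusted p = 0.103). Whether this probe set lies in exon 16 was not analysed here, so its signal does not check the deletion. Of the 9 hepatocyte markers measured none passed the test. Their summed signal lay between 514808.6 and 574562.6 in treated livers, against 466682.9 to 486027.5 in control livers, and Alb, which encodes albumin, differed by 0.05 on the log2 scale.

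Of the 9 factors, Cebpb and Cebpd rose in treated livers and none fell by the test. All 9 genes passed the filter on dim genes, and the 2 that passed the test stand against 0.659% of the 11993 kept genes in either direction (limma, Benjamini-Hochberg adjusted p under 0.05). Hnf4a was higher, and Foxa1 and Onecut1 were lower, without passing. Both treated arrays lay on the same side of both control arrays for 6 of the 9 genes, where 44.4% of kept genes did so. For 4 genes the treated arrays lay above (20.3% of kept genes) and for 2, Foxa1 and Onecut1, below (24.1%). Before adjustment 5 of the 9 had p under 0.05, against 12.1% of kept genes. At day 10, 2 of the 9 genes were at least 2-fold apart, against 10.7% of kept genes, and at day 7, 5 were, against 9.76%. The count at day 7 was 4 with quantile normalization, where Hnf4a was under 2-fold (log2 difference 0.91), and with equal medians, where Onecut1 was (-0.95). Cebpb and Cebpd were the 2 that were 2-fold apart in one direction at both days, against 2.68% of kept genes. The median log2 difference of all kept genes was -0.02. Of the 17 probe sets 16 passed the filter, and 2 passed the test, against 0.484% of 22518 kept probe sets. The groups did not overlap in 12 of the 17 (43.9% of kept probe sets), with treated above control in 9 (20.4%) and below in 3 (23.5%).

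**Figure D1:**
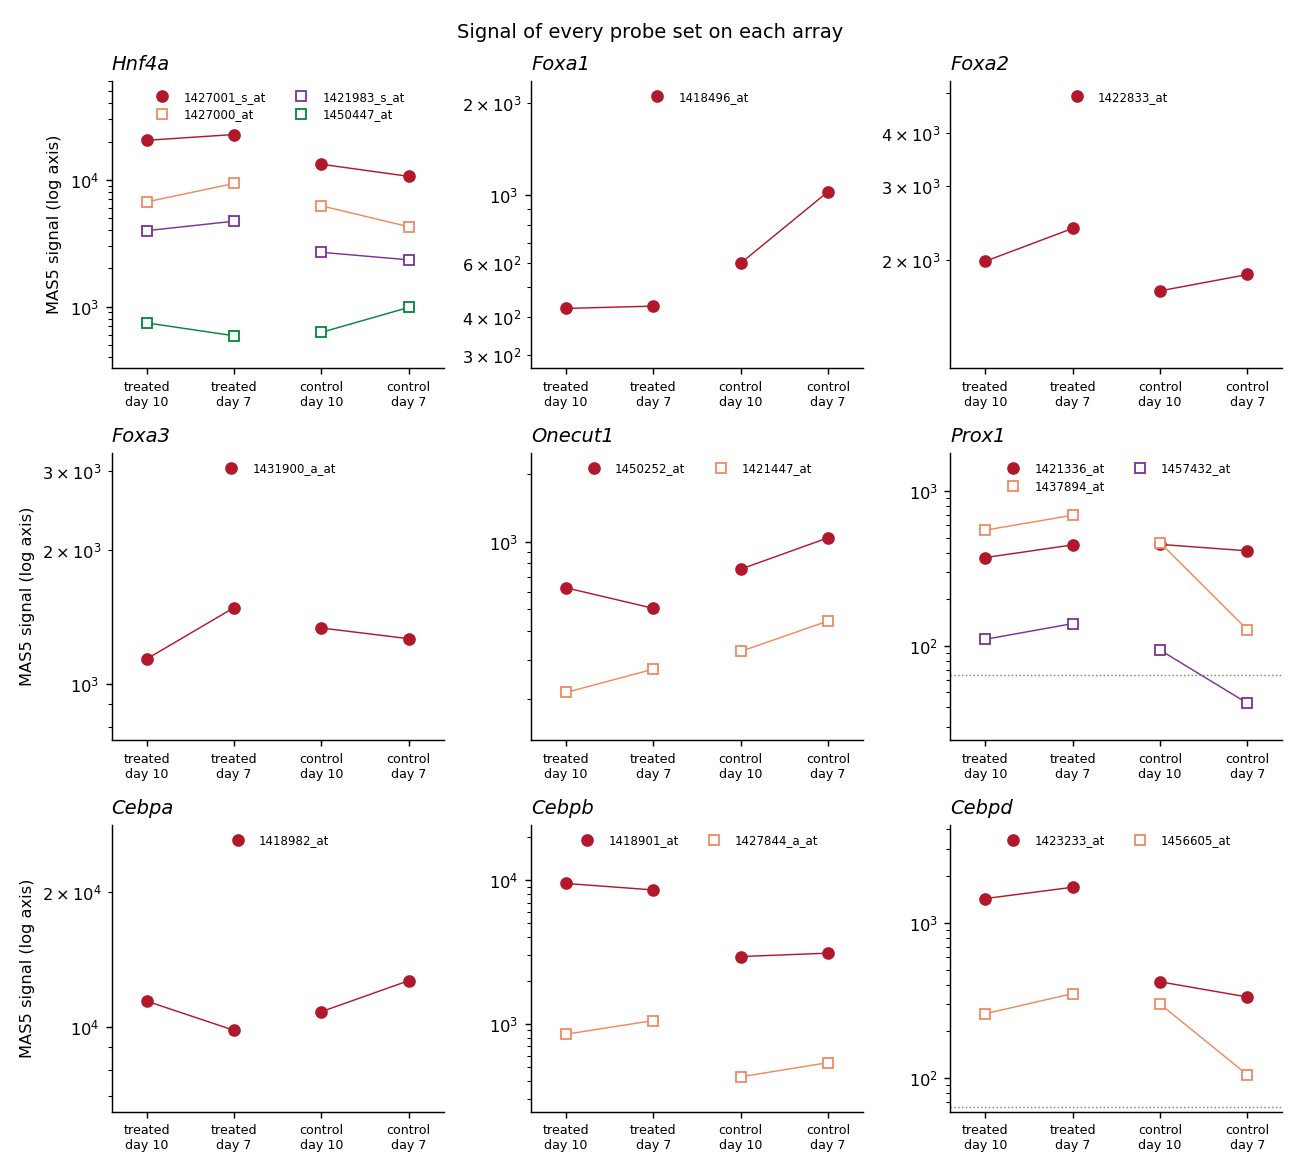
MAS5 signal (log axis) of each of the 17 probe sets on each of the 4 arrays, with filled circles for the brightest probe set of a gene, open squares for the others, and a dotted line at the floor of 64.8 units where it falls in the panel. Cebpb and Cebpd stand apart by group in their brightest probe sets, whereas Cebpa, Foxa3 and the brightest probe set of Prox1 overlap between groups.

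Cebpb, the gene of C/EBP beta, had 9501.3 and 8564.0 units in treated livers at day 10 and day 7, against 2942.5 and 3107.6 units in control livers. The treated arrays averaged 9033 ± 663 units and the control arrays 3025 ± 117 units (SD, n = 2 each), so the distance between groups was several times the spread within either. The log2 difference was 1.58 ± 0.20 (SE), a 2.98-fold rise (limma adjusted p = 0.0307), at 3.23-fold on the arrays of day 10 and 2.76-fold on those of day 7. The dimmer probe set, 1427844_a_at, had 847.0 and 1054.0 units in treated livers, against 427.9 and 536.5 in control livers. That is a steady 1.98-fold at day 10 and 1.96-fold at day 7, with groups that did not overlap, but it did not pass the test over probe sets (log2 difference 0.98 ± 0.25, adjusted p = 0.229).

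Cebpd, the gene of C/EBP delta, had 1430.5 and 1691.7 units in treated livers at day 10 and day 7, against 416.7 and 332.7 units in control livers. The log2 difference of 2.06 ± 0.23 (SE) was the largest of the 9 genes, a 4.18-fold rise (limma adjusted p = 0.0226), at 3.43-fold at day 10 and 5.08-fold at day 7. Its other probe set, 1456605_at, did not separate the groups. It had 259.6 and 350.2 units in treated livers, against 299.6 and 104.8 in control livers, so that the control array of day 7 alone was low (log2 difference 0.77 ± 0.57, adjusted p = 0.646). Neither call was kept in a fit that blocked on day (adjusted p = 0.116 for Cebpb, 0.0675 for Cebpd), without the control array of day 10 (0.325 and 0.141) or without that of day 7 (0.259 and 0.144). Both were also lost with no filter on dim genes (0.11 and 0.192), without the intensity trend (0.0819 and 0.059) and with probe sets averaged per gene (0.0923 and 0.236). The log2 differences stayed positive in each of these fits.

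The promoter window of Cebpb is printed because Cebpb rose in treated livers, with the letters TGACG, the core of a cAMP response element, and TATAAA, the core of a TATA box, in capitals where they occur on either strand. It is chr2:167688665-167688964, plus strand, GRCm38.p6, from RefSeq, and spans 250 bases before to 50 after the annotated gene start.
Cebpb: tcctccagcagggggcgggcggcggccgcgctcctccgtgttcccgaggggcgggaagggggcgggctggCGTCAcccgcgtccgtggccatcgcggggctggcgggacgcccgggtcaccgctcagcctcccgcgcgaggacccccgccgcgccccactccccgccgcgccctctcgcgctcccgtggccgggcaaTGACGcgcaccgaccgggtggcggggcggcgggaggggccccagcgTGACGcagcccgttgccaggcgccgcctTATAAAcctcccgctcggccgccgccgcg
TGACG began 180, 53 and 7 bases before the annotated start and TATAAA 21 bases after it, with no overlap between them. TGACG was in 20.8% and TATAAA in 13.6% of the 32851 windows of this length in the table. For 8 of the 9 genes the table held 12 windows. It held none for Cebpd, whose promoter was therefore not searched for any motif. Of the 12 windows 3 had TGACG, those of Cebpb, Foxa2 and Onecut1. TATAAA was in 5 of the 12, those of Cebpa, Cebpb, Foxa2, Foxa3 and Prox1. A C/EBP motif, TTGCNNAA, and a STAT motif, TTCNNNGAA, were in 0 of the 12, against 10.8% and 8.3% of all windows, which says only that these letters are not in these windows.

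Cebpa, which encodes the C/EBP factor of the resting hepatocyte, did not separate the groups. Its single probe set had 11394.8 and 9809.6 units in treated livers at day 10 and day 7, against 10792.1 and 12654.4 units in control livers. The highest and the second lowest of these values were both of control arrays, so the ranges overlapped. The log2 difference was -0.14 with a 95% interval from -0.66 to 0.37 (limma adjusted p = 0.829), which does not show that the level was equal. Relative to the mean of the control arrays, the log2 ratio of Cebpb to Cebpa was 1.69 at day 10 and 1.75 at day 7 in treated livers, against 0.08 and -0.08 in control livers. The ratio of Cebpd to Cebpa was 1.98 and 2.44 in treated livers, against 0.28 and -0.28 in control livers. Both ratios lay apart by group on all 4 arrays, with no test made. They restate the values of the brightest probe sets given above and are no further result.

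The genes whose 4 log2 signals, centred on the control mean, lay nearest to Cebpb among kept genes were Itih3, Ell and Tmcc2. Itih3, which encodes a heavy chain of the inter-alpha-trypsin inhibitor of plasma, lay at a Euclidean distance of 0.05 over 4 arrays, Tmcc2 at 0.20 and Ell, an elongation factor of RNA polymerase II, at 0.24. For Cebpd they were Safb2 at 0.26, the sorting nexin gene Snx10 at 0.28 and Zbtb16, a zinc finger repressor gene, at 0.36. With 4 arrays many genes can lie close, and the distances are a description. Of the other C/EBP and partner leucine zipper genes, 0 of 9 kept genes passed, with a median log2 difference of 0.37, which was 0.17 without the treated array of day 7. Of them 3 were higher at both days, the C/EBP gamma gene Cebpg, the stress factor gene Atf4 and the cAMP responsive factor gene Creb1. Over both days they differed by 0.37, 0.38 and 0.35. Daily differences had opposite signs in 42.1% of all kept genes. The clock output factor genes Dbp and Tef, close in structure to the C/EBPs, had opposite differences at the days, at -0.74 and 1.82 for Dbp and -0.44 and 1.83 for Tef at day 10 and day 7.

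Genes of the cytokine signals known to induce Cebpb and Cebpd were measured beside them. Of 12 kept genes 2 rose and 0 fell, against 0.375% and 0.283% of all kept genes. At both days 9 were higher and 1 lower, with a median log2 difference of 0.63. Of all kept genes 42.1% had daily differences of opposite sign. The interleukin 1 receptor gene Il1r1 had 2914.5 and 2330.1 units in treated livers at day 10 and day 7, against 117.8 and 133.8 in control livers. Both control values lay under the filter's 204 units, so that Il1r1 was kept through the treated arrays alone and no fold is given. Its call had to rest on them. The count of 2 that rose includes Il1r1, so it cannot be read against the share of all kept genes. Nfkbiz, which encodes a nuclear inhibitor-type partner of NF-kB that is induced by interleukin 1, had 1690.9 and 3381.0 units, against 337.5 and 345.2 (7.01-fold, limma adjusted p = 0.0277). Below the threshold stood Socs3, the feedback inhibitor of STAT3, with 6166.9 and 1224.9 units in treated livers, against 312.7 and 354.5 in control livers (adjusted p = 0.164). Stat3 itself had 8546.7 and 5747.9 units, against 2365.2 and 2709.7 (adjusted p = 0.0865). The receptor subunit gene Il1rap was lower without passing, at -1.03, and the tumour necrosis factor receptor gene Tnfrsf1a higher without passing, at 0.75.

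Acute phase genes with known C/EBP sites in their promoters were also higher in treated livers. All 11 kept genes were higher at both days, where 42.1% of all kept genes had daily differences of opposite sign. By the test 5 rose, against 0.375% of all kept genes. The list's median was a log2 difference of 2.51 at day 10 and 1.60 at day 7. The 5 were Lcn2, Orm1, Orm2, Saa2 and Saa3, at log2 differences from 1.88 to 6.86. With day fitted as a block, Orm2 and Saa2 (adjusted p = 0.0617 each) and Orm1 (0.114) no longer passed. Over all 5 lists of transcription factors, signals and targets 7 genes passed, and 17 and 21 did without the treated array of day 10 and of day 7, against 3 and 6 without the control array of day 10 and of day 7.

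Cebpb and Cebpd are also expressed in myeloid cells. All 12 macrophage and Kupffer cell markers were higher in treated livers at both days, as were 5 of 7 kept neutrophil and myeloid precursor markers. Of all kept genes 42.1% had daily differences of opposite sign, and the share higher at both days was not counted. By the test 3 of the 12 rose, Cd163, C1qc and Vsig4, against 0.375% of all kept genes. Of these C1qc and Vsig4 (limma adjusted p = 0.0518 each) no longer passed with day fitted as a block. The list summed to between 48906.5 and 49700.8 units in treated livers, against 12111.1 to 21439.8 in control livers. Of 7 kept neutrophil and myeloid precursor markers 3 rose, Prtn3, S100a8 and S100a9. Prtn3 was listed under the floor on both control arrays, at 49.2 and 44.2 units. It was kept through the treated arrays alone, so that its call had to rest on them. S100a9 had 274.7 and 119.6 units in control livers at day 10 and day 7, against 1701.5 and 1554.6 in treated livers. Its control mean of 197.15 units lay under the filter's 204 units, so S100a9 too was kept only through the treated arrays. The count of 3 that rose includes Prtn3 and S100a9, so it was not set against the share of all kept genes. The 8 measured markers of the list summed to between 10130.8 and 13003.5 units, against 2943.6 to 3302.5. The granule gene Camp was at or under the floor of 64.8 units on all 4 arrays. Ngp was higher by 0.76 on the log2 scale and Mpo, which encodes myeloperoxidase, by 0.14, without passing. Elane and Ltf had differences of opposite sign at the days, at 0.57 and -0.72 for Elane and -0.009 and 0.99 for Ltf at day 10 and day 7. In these liver RNA pools, more cells of a type and more RNA per cell cannot be told apart, and the part of myeloid cells in the values of Cebpb and Cebpd was not tested.

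**Figure D2:**
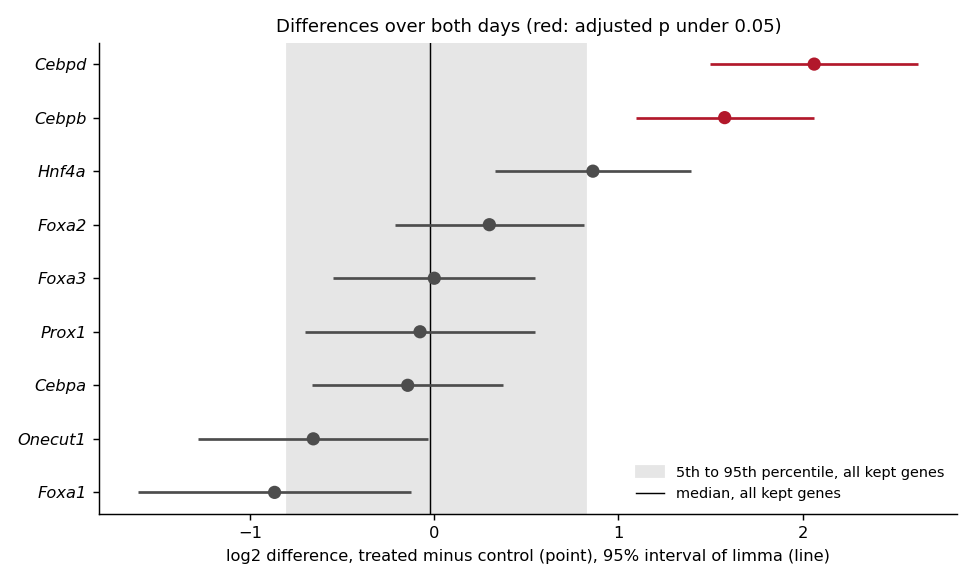
Log2 difference over both days, treated minus control, for the brightest probe set of each of the 9 genes (points) with limma's 95% interval (lines), over the 5th to 95th percentile of all 11993 kept genes (grey, -0.80 to 0.82) and their median. Cebpd at 2.06 and Cebpb at 1.58 passed the test (red), and the intervals of the other 7 genes lay within or across the grey range.

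Hnf4a, the nuclear receptor gene at the centre of the hepatocyte network, was higher in treated livers in 3 of its 4 probe sets, and none of the 4 passed. The brightest, 1427001_s_at, had 20476.6 and 22744.6 units in treated livers at day 10 and day 7, against 13261.8 and 10643.3 in control livers. The groups did not overlap, at a log2 difference of 0.86 ± 0.22 (SE, 1.82-fold) with a 95% interval from 0.33 to 1.39 before adjustment (limma adjusted p = 0.212). Of 16 alternatives 1 passed, the fit without the treated array of day 10 (log2 difference 0.94, adjusted p = 0.0495). The adjusted p was 0.0752 without the treated array of day 7, 0.592 and 0.756 without the control array of day 10 and of day 7, and 0.387 with day fitted as a block.

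The next probe set, 1427000_at, had 6689.8 and 9353.2 units in treated livers, against 6239.0 and 4264.8 in control livers, so that the groups were close at day 10 (1.07-fold) and apart at day 7 (2.19-fold). Probe set 1421983_s_at had 3969.5 and 4714.8 units in treated livers, against 2681.5 and 2338.8, and tracked the brightest at 1.48-fold and 2.02-fold. The dimmest, 1450447_at, overlapped between groups, with 744.5 and 589.7 units in treated livers, against 626.7 and 986.0 in control livers (log2 difference -0.25 ± 0.30, adjusted p = 0.792). The probe sets of Hnf4a thus disagreed in direction, and the transcripts that each one reads were not analysed here.

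The FOXA genes differed among themselves. Foxa1 had 426.3 and 433.8 units in treated livers at day 10 and day 7, against 599.3 and 1027.1 units in control livers, with both treated arrays below both controls. The log2 difference was -0.87 ± 0.31 (SE) with a 95% interval from -1.61 to -0.13 before adjustment (limma adjusted p = 0.347). The treated arrays were nearly level, while the control array of day 10 was lower than that of day 7 by 0.78 on the log2 scale, so that the difference between groups was 1.41-fold at day 10 and 2.37-fold at day 7.

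Foxa2 had 1987.8 and 2379.4 units in treated livers, against 1690.5 and 1848.8 in control livers. Both treated arrays lay above both controls, by a small log2 difference of 0.30 with an interval from -0.21 to 0.81 (adjusted p = 0.625). Foxa3 had 1135.1 and 1480.6 units, against 1333.0 and 1261.1, and overlapped, with an interval from -0.55 to 0.55 (adjusted p = 1). A FOXA motif, TGTTTAC, was in 1 of the 12 promoter windows, that of Foxa1, and in 3.65% of all windows.

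Onecut1, which encodes HNF6, was lower in treated livers in both of its probe sets without passing. The brighter, 1450252_at, had 624.1 and 505.8 units in treated livers at day 10 and day 7, against 754.9 and 1039.9 in control livers (log2 difference -0.66 ± 0.26 SE, limma adjusted p = 0.392). The other, 1421447_at, had 214.2 and 271.9 units, against 325.8 and 444.7 (-0.66 ± 0.33, adjusted p = 0.513). In both the treated arrays lay below the control arrays. They differed in how the days compared, at 1.21-fold at day 10 and 2.06-fold at day 7 in the brighter, and 1.52-fold and 1.64-fold in the other. Onecut2, a relative of Onecut1, was higher without passing, at 0.78.

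Prox1, a homeobox gene of hepatocytes that lymphatic endothelium also expresses, gave no common direction over its 3 probe sets. The brightest by mean log2 signal, 1421336_at, had 372.0 and 449.2 units in treated livers at day 10 and day 7, against 452.6 and 411.1 in control livers, and overlapped (log2 difference -0.08, interval from -0.70 to 0.55, limma adjusted p = 0.933). Probe set 1437894_at had 559.5 and 698.9 units in treated livers, against 463.7 and 126.8 in control livers. Its log2 difference of 1.37 ± 0.59 (adjusted p = 0.442) came with a 1.21-fold distance at day 10 and 5.51-fold at day 7, where the control array was low. The dimmest, 1457432_at, lay under the filter and was not tested, with 110.2 and 139.2 units, against 93.8 and 42.5, the last under the floor. Of 8 kept lymphatic and sinusoidal endothelial markers 0 passed. The list summed to between 8147.4 and 11332.4 units in treated livers, against 8268.7 to 9203.3 in control livers. On the log2 scale Lyve1 and Pdpn of this list differed by -0.28 and -0.17, Flt4 by -0.16 and Pecam1 by 1.01. In each of these genes the sign differed between the days. Pecam1 had 79.7 units on the control array of day 10, near the floor of 64.8 units, and 265.6 on that of day 7. Higher at both days were 2 genes of the list, Stab2 at 0.37 and Stab1 at 0.19, and 0 were lower at both. Cholangiocytes express Onecut1 and Foxa genes as well, and their 5 measured markers summed to between 569.8 and 1288.9 units, against 996.5 to 1079.6, with 2 kept and none passing. The part of these cells in the values was not tested.

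**Figure D3:**
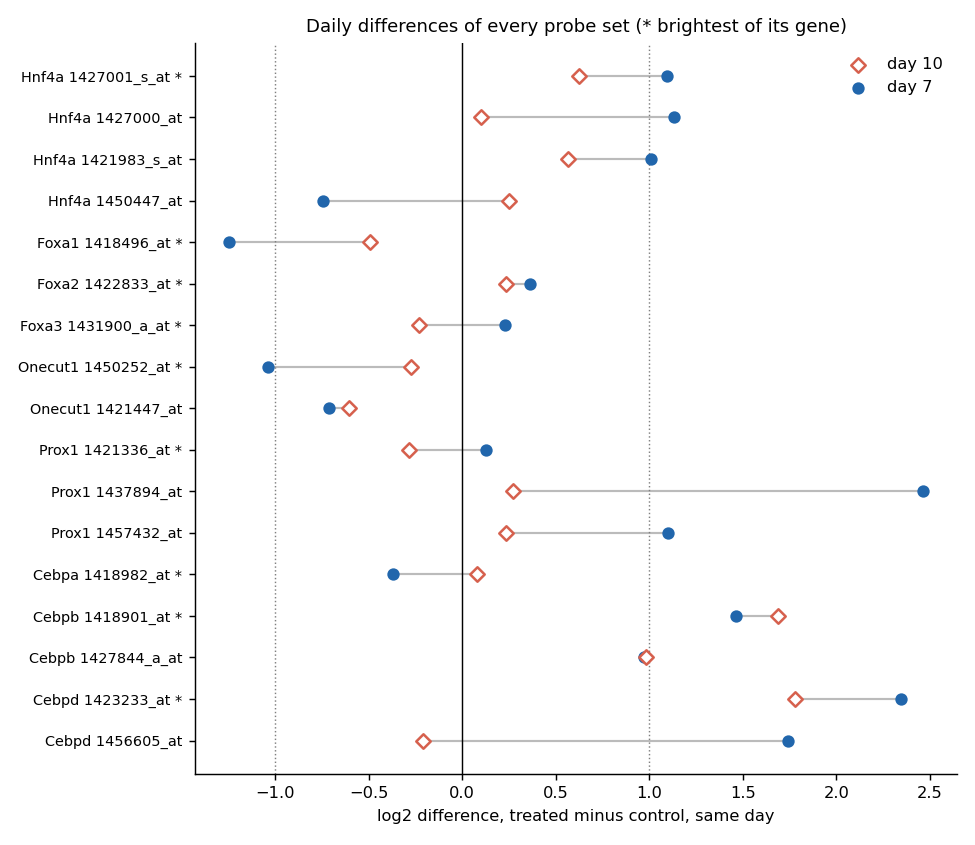
Log2 difference between the treated and the control array of the same day for each of the 17 probe sets, at day 10 (diamonds) and day 7 (circles), with dotted lines at 2-fold. The brightest probe sets of Cebpb and Cebpd lay beyond 2-fold at both days. Those of Foxa1, Onecut1 and Hnf4a did so at day 7 only, each with 1 array per group and day. Dimmer probe sets beyond 2-fold at day 7 only were 1427000_at and 1421983_s_at of Hnf4a, 1437894_at and 1457432_at of Prox1 and 1456605_at of Cebpd.

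The days were compared by the difference between their effects, day 10 minus day 7, which has 1 array per group and day and no test. In the brightest probe sets it was 0.23 for Cebpb and -0.57 for Cebpd on the log2 scale, small against differences of 1.58 and 2.06. It was 0.75 for Foxa1, 0.77 for Onecut1 and -0.47 for Hnf4a, and these 3 genes lay nearer to controls at day 10 than at day 7. Among the 9 genes 3 had differences of opposite sign at the days, Foxa3, Prox1 and Cebpa, where 42.1% of kept genes did.

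Other transcription factors of the hepatocyte were measured beside the 9. Of 24 genes, all kept, 0 passed, and 12 were higher and 4 lower at both days. Over all kept genes 42.1% had daily differences of opposite sign. The list's median log2 difference was 0.30, against -0.02 over all kept genes. It was 0.19 without the treated array of day 7 and 0.15 without the control array of day 7. Nr1i3, the xenobiotic receptor CAR, had 2328.3 and 6930.3 units in treated livers at day 10 and day 7, against 665.7 and 1615.0 in control livers. That was 3.87-fold higher, with day 10 lower than day 7 in both groups, and it did not pass (adjusted p = 0.284). Gata6, a zinc finger factor gene, was higher by 0.99, and Rxra, the partner of many nuclear receptors, by 0.65, while Hhex, a homeobox gene of liver development, was lower at -0.64. None of these 3 passed (adjusted p = 0.175, 0.396 and 0.344).

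Genes that C/EBP alpha is known to activate in hepatocytes were measured as well. Of 12 kept genes 0 passed, and 3 were higher and 4 lower at both days. Daily differences had opposite signs in 42.1% of all kept genes. The list's median log2 difference was -0.06. The daily medians were -0.55 at day 10 and 0.14 at day 7. Over both days the median was 0.18 without the treated array of day 10, -0.48 without that of day 7 and -0.17 without the control array of day 7, so its sign rested on single arrays. The fatty acid binding protein gene Fabp1 had 26549.1 and 2909.0 units in treated livers at day 10 and day 7, against 63240.0 and 58375.8 in control livers. Both treated arrays lay below both control arrays, and the gene did not pass (log2 difference -2.79 ± 0.92 SE, limma adjusted p = 0.314). The urea cycle gene Otc was lower at a log2 difference of -1.37 and the glucose 6-phosphatase gene G6pc at -1.20, while the tyrosine aminotransferase gene Tat was higher at 0.60, with none of them passing. The albumin gene Alb and the transthyretin gene Ttr differed by 0.05 and -0.05.

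**Figure D4:**
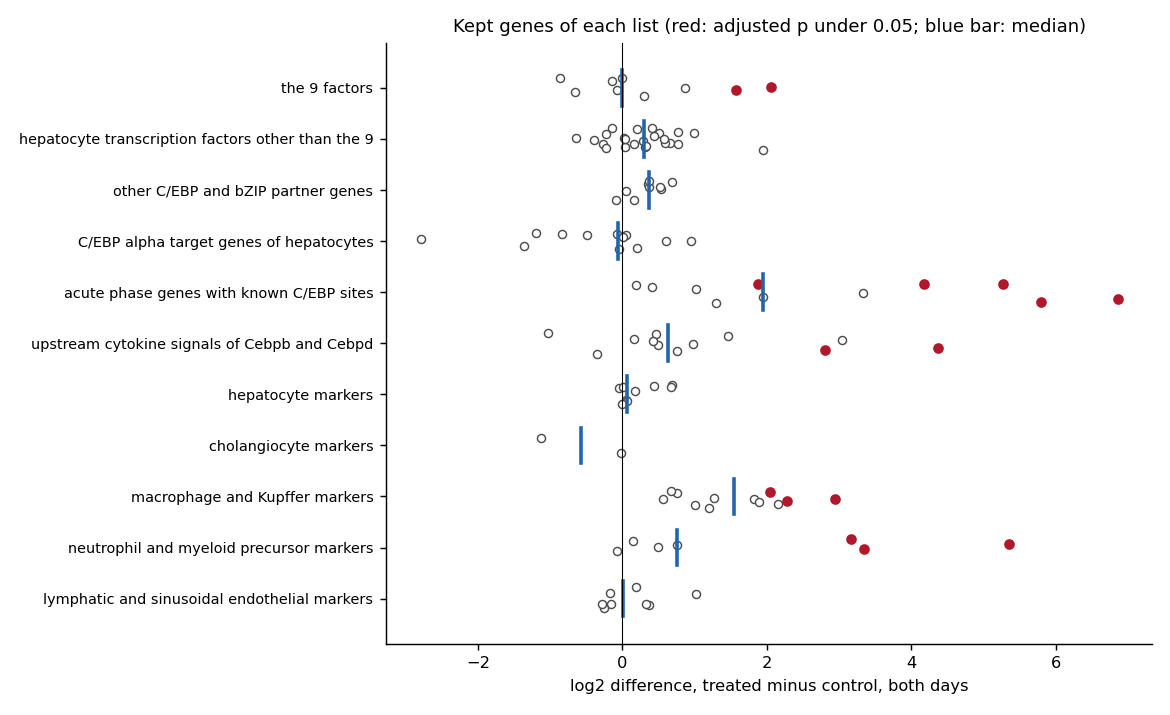
Log2 difference over both days, treated minus control, of each kept gene (points, red where adjusted p was under 0.05) in the 9 factors and in 10 lists of other genes, with the list's median as a blue bar. The acute phase list (median 1.95) and the macrophage list (1.55) lay highest, and the lists of other transcription factors and of metabolic targets had medians between -0.06 and 0.37.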

How the data were processed

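RNA of pooled livers was measured on 4 Affymetrix mouse arrays, 2 per group (delta MET + EGFRi; control). Per the submitters' processing notes the deposited intensity (signal) values were made with MAS5, of a version that the sources used here do not state, and each array had a mean near 500.0 once 2% of its values were trimmed from either end. Detection calls were not used here. Signals under the 25th percentile (64.8) were set to it and log2 was taken. Probe sets with a single symbol in the platform annotation (34945 of 45101, 64 being array controls) were used for genes; 99.4% matched by Entrez ID in the RefSeq table of GRCm38.p6, and 0 symbols changed. A gene was its brightest probe set, and the filter kept 11993 genes whose mean log2 signal exceeded 7.67 (204 units), the median over probe sets. limma 3.58.1 in R 4.3.3 (lmFit and trended eBayes, two-sided tests, Benjamini-Hochberg) compared 2 with 2 arrays without a day term, with 2 residual degrees of freedom, over all kept genes, and again over 22518 kept probe sets. Log2 differences are treated minus control. The arrays of a group differ in day, so p-values measure the spread between these arrays, days included. Trended eBayes moves each gene's spread toward that of genes of similar signal, so SEs, intervals and p-values rest partly on other genes. Pools carry no spread between animals. Single days have 1 array per group and no test. The share of all kept genes that were higher, or lower, at both days was not counted. The code was tested on simulated arrays. Figures used Python 3.11.15 and matplotlib 3.10.9.

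The members and gene lists were chosen with earlier results of these data known. One further list, apart from those given, is not reported here. The genes named are the 9, each list's passing genes and up to 4 others with the largest smaller daily difference of the same sign. The 3 genes nearest to a factor that passed or was 2-fold apart at both days are also named. Chosen examples outside this rule, named after their values were seen, are Dbp, Tef, Onecut2, Alb, Ttr, Lyve1, Pdpn, Flt4, Pecam1, Camp, Elane and Ltf. The day is the replicate number and comes from the labels; the deviations of the day 7 arrays from their group means correlated across genes at r = -0.07. Alternatives were quantile and median scaling, floors at the 10th and 40th percentile, no filter or one at the 75th percentile, the mean of probe sets, no trend, blocking on day, each array left out in turn, other probe sets, an adjusted p under 0.1, and size rules of 1.5-fold and 3-fold.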

Additional observations from a re-analysis of the deposited data

Results flagged for a closer look

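In 5 probe sets the treated array was above the control array on one day and below it on the other, which 42.1% of kept genes also showed in their brightest probe sets. The difference between the daily effects, day 10 minus day 7 on the log2 scale, was -1.95 for Cebpd (1456605_at), 0.99 for Hnf4a (1450447_at), -0.46 for Foxa3, 0.45 for Cebpa and -0.41 for Prox1 (1421336_at). With 1 array per group and day this difference was not tested.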

How the results depend on the processing

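With 2 arrays per group the number of arrays limits every value. Of the 9 factors 2 passed, and 2 also did with quantile normalization, equal medians, floors at the 10th and 40th percentile, the filter at the 75th percentile and an adjusted p under 0.1. By limma 0 of them passed with no filter (0 of all 18193 genes, of which 1918 had an unadjusted p under 0.05), the mean of probe sets (42 genes in all, 2 in the other lists), no trend (42) or day as a replicate block (47, and 0 probe sets of the factors). In those fits 3, 5, 4 and 4 of the 9 had an unadjusted p under 0.05. Leaving out each array in turn gave 0 to 3 of the factors, 0 to 2 of their probe sets, 24 to 466 genes in all and 3 to 21 in the other lists, against 79 and 7. With an adjusted p under 0.1, 162 genes passed. The fits without an array took their spread from the other group alone. With the mean of probe sets 1 factor was 2-fold apart at day 10, and with a 3-fold rule 1 at day 7. With the mean of probe sets 4 were 2-fold apart at day 7. Hnf4a at 0.62 and Onecut1 at -0.87 on the log2 scale were then under 2-fold, and Prox1 at 1.23 came in. The sign turned for Foxa3 with equal medians (0.017) and over the fits without an array (-0.19 to 0.19). It turned for Prox1 with the mean of probe sets (0.65), over the fits without an array (-0.21 to 0.058) and in probe set 1437894_at (1.37), and for Hnf4a in probe set 1450447_at (-0.25). Scaling moved the median of all genes by under 0.1 on the log2 scale. The cause of these changes was not tested.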
